A study of Bos taurus with 34 samples.

Results

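Prostaglandins are lipid signals made from arachidonic acid that phospholipases release from membranes. Cyclooxygenases turn it into prostaglandin H2, terminal synthases turn that into individual prostaglandins, a transporter carries these into cells, and a dehydrogenase inactivates them. In the cow, prostaglandin F2α from the endometrium ends the life of the corpus luteum, prostaglandin E2 acts on the uterus and the corpus luteum, and both act on the contraction of the oviduct. The genes described here are 10 genes of prostaglandin synthesis, transport, breakdown and reception: PTGS1, PTGS2, PTGES, PTGES2, PTGES3, SLCO2A1, HPGD, PTGFR, PTGDR and PTGER4. They were chosen by name out of 21284 genes to which rows of the count table were matched, and the row with the highest mean count stood for each gene. All 10 had a row, and 8 passed the filter on low counts. PTGS1, with 30 counts over all libraries, and PTGER4, with 10, did not.

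RNA was sequenced from the mucosal lining of oviduct and uterus in 5 Holstein heifers that had never calved (nulliparous). All were killed on day 2 after ovulation and had received the 5-day CIDR-Synch treatment (a synchronisation of ovulation with an intravaginal progesterone insert). The lining of the ampulla, the wide segment of the oviduct, was taken on the ipsilateral (ovulatory) and the contralateral side, with 5 libraries each. The upper uterine horn gave 4 ipsilateral and 5 contralateral libraries, the mid horn 5 of each side, and the uterine body 5, which makes 34 libraries in 7 groups. The ipsilateral upper horn of heifer 11110 was not analysed here. The labels give the uterine body 1 library per animal, with no side. There was no group without synchronisation and no other day, so every comparison was between sites or sides of the same animals.

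Total counts ran from 11619486 to 30412782 per library, with a median of 20610132. Values are CPM, counts scaled to the library size with TMM factors, and they compare libraries for 1 gene: no transcript lengths were used, so CPM of different genes are not set against each other. The contralateral mid horn of heifer 10882 stood apart, with summed basal epithelium markers of 459 CPM and oviduct secretory markers of 835 CPM, against at most 43.1 and 62.6 CPM in the other uterine libraries. The fewest rows with a count were 15773 in heifer 11070's contralateral ampulla and 16049 in heifer 11033's contralateral upper horn. The labelled tissues carried their markers. Summed ciliated epithelium markers were 1730 to 2470 CPM in ampulla libraries and 117 to 616 CPM in endometrium libraries, while summed stromal markers were 38.3 to 102 CPM in ampulla libraries and 36500 to 84700 CPM in endometrium libraries.

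The comparison of the ampulla with the endometrium asked how the 2 linings differ in this pathway. In the ampulla 5 of the 8 tested genes were lower and 0 were higher: the inducible cyclooxygenase PTGS2, the inducible prostaglandin E synthase PTGES, the transporter SLCO2A1, the receptor PTGDR and, by a smaller step, the inactivating enzyme HPGD. PTGES2, PTGES3 and PTGFR did not pass the test. The edgeR adjusted p of the 5 genes ran from 1.8e-15 for SLCO2A1 to 9.19e-07 for HPGD, and the SE of their log2 fold changes from 0.29 to 0.44. Without the 3 libraries that stood apart all 5 were called again, with log2 fold changes from -5.80 for PTGES to -1.95 for HPGD. Over all 17241 transcripts tested, 64.9% were called at an adjusted p under 0.05, 29.4% higher and 35.6% lower in the ampulla, so a call in this comparison was common. The median log2 fold change was -3.08 over the 8 genes and -0.18 over all transcripts. Tests were edgeR's quasi-likelihood F test with heifer as a term, and a fold change is ampulla over an equal-weight mean of the 3 uterine sites. Fold values come from that model and need not equal the ratio of the heifer means. Counts of heifers give the direction only. In bulk tissue, fewer cells of a type and less RNA per cell cannot be told apart.

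**Figure D1:**
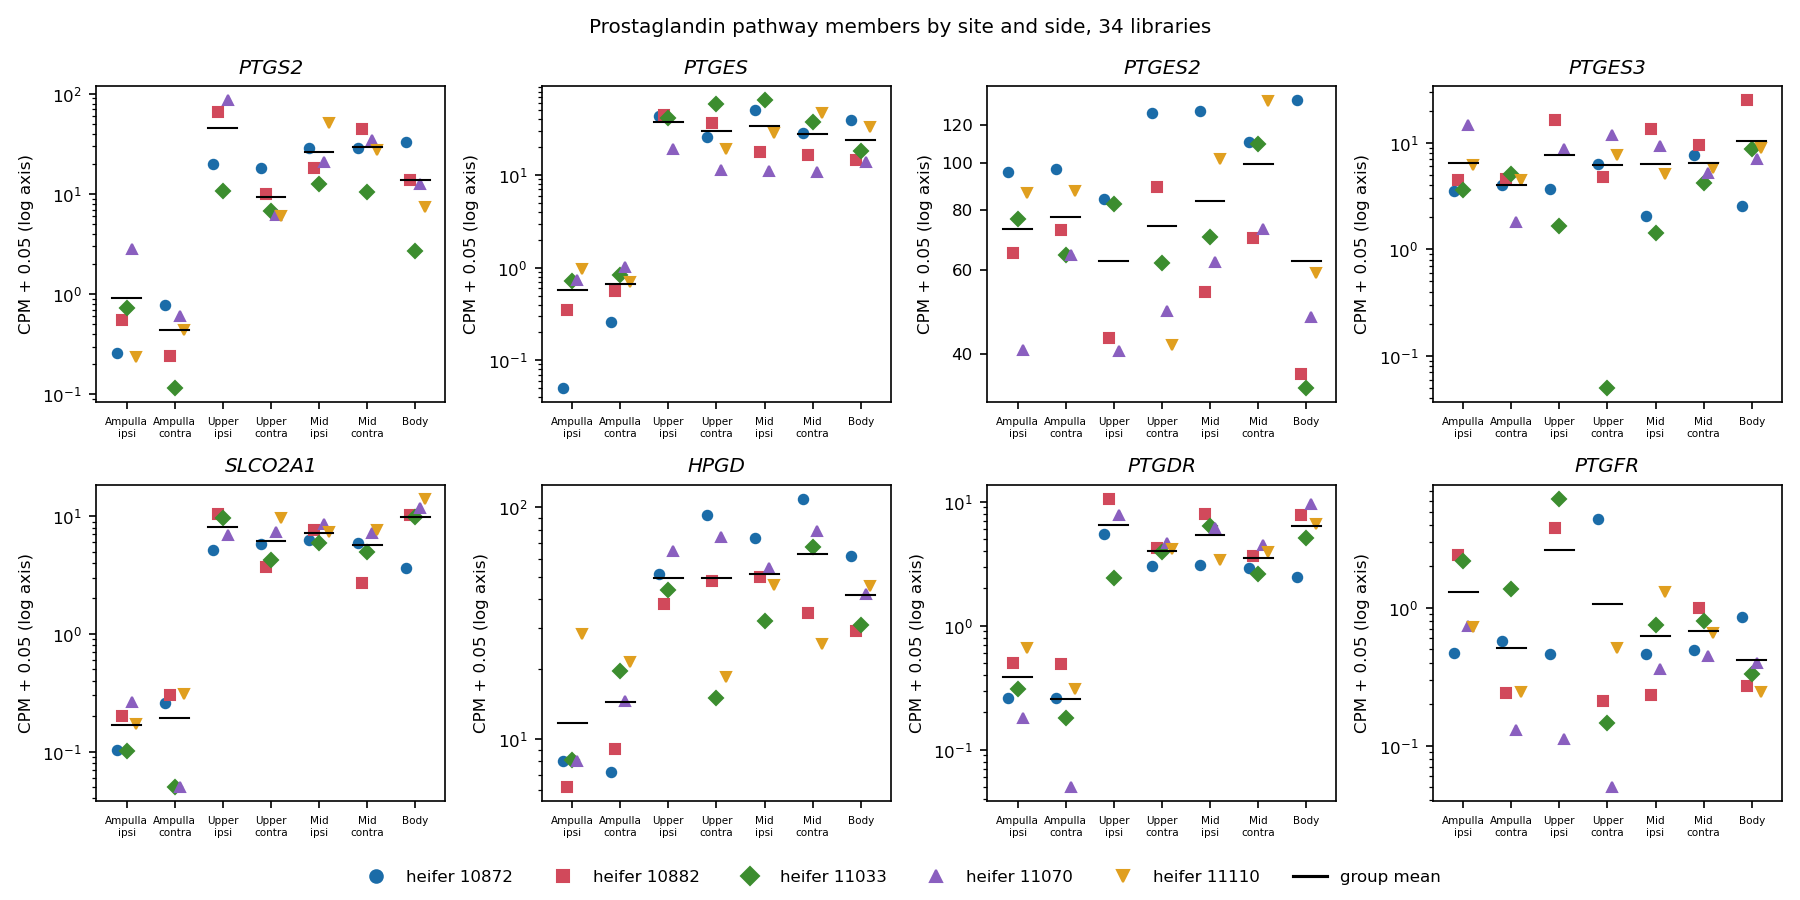
CPM plus 0.05 on a log axis for the 8 tested genes, each point 1 library, coloured by heifer, with the 7 groups from ipsilateral ampulla to uterine body on the x axis and a bar at the group mean. PTGES, SLCO2A1 and PTGDR lie lower in every ampulla library than in every endometrium library, with highest ampulla values of 0.959, 0.259 and 0.616 CPM, while PTGES2 covers a like range in both tissues.

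Cyclooxygenases make prostaglandin H2, the precursor that all terminal synthases share. PTGS2, the inducible form, had 0.210, 0.50, 0.673, 2.77 and 0.185 CPM in the ipsilateral ampulla and 0.732, 0.190, 0.0656, 0.559 and 0.388 CPM in the contralateral ampulla, in the order of heifers 10872, 10882, 11033, 11070 and 11110. In that order it had 28.7, 18.2, 12.4, 21.0 and 51.6 CPM in the ipsilateral mid horn, 28.9, 44.4, 10.4, 34.9 and 27.4 CPM in the contralateral mid horn, and 33.4, 13.7, 2.67, 12.4 and 7.35 CPM in the uterine body. The ipsilateral ampulla of heifer 11070 was the highest ampulla library, and its 2.77 CPM passed the lowest uterine library, the body of heifer 11033 at 2.67 CPM, so the 2 tissues overlapped by that pair alone. Averaged over each heifer's libraries, PTGS2 was 0.627 ± 0.584 CPM in the ampulla, against 21.7 ± 9.08 CPM in the endometrium (SD, n = 5 heifers). By the edgeR model PTGS2 was 33.6-fold lower in the ampulla, and it was lower in 5 of 5 heifers.

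PTGS1, the constitutive cyclooxygenase, was nearly without counts in either tissue. It had 1 count in the 10 ampulla libraries and 29 in the 24 endometrium libraries, a ratio of pooled CPM of 0.103 with a 95% exact interval from 0.00252 to 0.620 that covers counting error only. Of the endometrium counts, 8 lay in the contralateral upper horn of heifer 11070, and 12 of the 24 endometrium libraries had 0. The reference table lists 1 transcript for this gene. Whether its few counts reflect low expression or lost reads was not tested.

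Of the 3 terminal prostaglandin E synthases, 1 was lower in the ampulla. This was PTGES, the microsomal enzyme that is induced together with PTGS2. It had 0, 0.660 and 0.959 CPM as the lowest, median and highest ampulla library and 10.9, 28.4 and 64.2 CPM as the same of the endometrium. No ampulla library reached any endometrium library. Its heifer means were 0.570 ± 0.309 CPM in the ampulla, against 28.9 ± 10.8 CPM in the endometrium (SD, n = 5). By the edgeR model PTGES was 48.4-fold lower in the ampulla, and it was lower in 5 of 5 heifers.

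PTGES2, a membrane-associated synthase expressed in many tissues, stood at 75.0 ± 17.2 CPM in the ampulla, against 73.3 ± 27.4 CPM in the endometrium (SD, n = 5). Its libraries ran from 40.7 to 97.3 CPM in the ampulla and from 33.9 to 135 CPM in the endometrium, so the ampulla values lay wholly inside the endometrium range. Its log2 fold change was 0.09 ± 0.15 (SE), with a 95% interval from -0.21 to 0.38 and an edgeR adjusted p of 0.622, and it was higher in the ampulla in 3 of 5 heifers.

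PTGES3 codes for the cytosolic synthase, which also serves as a co-chaperone of the heat shock protein HSP90. It averaged 5.19 ± 1.75 CPM in the ampulla, against 7.84 ± 4.71 CPM in the endometrium (SD, n = 5), and its log2 fold change of -0.37 ± 0.37 (SE) had a 95% interval from -1.13 to 0.39 and an edgeR adjusted p of 0.389. The spread between uterine libraries was wide, from 0 in the contralateral upper horn of heifer 11033 to 24.9 CPM in the body of heifer 10882. The reference table lists 2 transcripts for PTGES3, and the other row held 66 counts against 5086 in the row used.

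SLCO2A1 carries prostaglandins across the cell membrane and is the uptake step before breakdown. Its ampulla libraries had 0, 0.137 and 0.259 CPM as the lowest, median and highest, and its endometrium libraries had 2.68, 7.21 and 13.8 CPM. The tissues did not overlap, and the ampulla total was 24 counts over 10 libraries. Heifer means were 0.132 ± 0.0710 CPM in the ampulla, against 7.79 ± 1.97 CPM in the endometrium (SD, n = 5). By the edgeR model SLCO2A1 was 53.9-fold lower in the ampulla, and it was lower in 5 of 5 heifers. The lowest uterine library was the contralateral mid horn of heifer 10882, which also carried the basal and secretory markers of the oviduct named above. Without that library, the log2 fold change of SLCO2A1 was -5.79 and its call stayed.

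HPGD oxidises prostaglandins to inactive forms. It had 6.15, 8.54 and 28.4 CPM as the lowest, median and highest ampulla library, and 15.0, 47.2 and 108 CPM as the same of the endometrium. The ranges overlapped through heifer 11110, whose ampulla libraries had 28.4 CPM on the ipsilateral and 21.3 CPM on the contralateral side, and through heifer 11033, whose contralateral ampulla had 19.7 CPM. The heifer means were 13.0 ± 7.13 CPM in the ampulla, against 48.5 ± 17.9 CPM in the endometrium (SD, n = 5). By the edgeR model HPGD was 3.72-fold lower in the ampulla, and it was lower in 5 of 5 heifers.

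HPGD had the smallest of the 5 fold changes. Lower ratios of PTGES and PTGS2 to HPGD in the ampulla follow from these fold changes and are no separate result. The ratio of PTGES to HPGD CPM within a library was 0 to 0.0865 in ampulla libraries (median 0.0444), against 0.138 to 3.94 in endometrium libraries (median 0.597). The ratio of PTGS2 to HPGD was 0.00333 to 0.346 in ampulla libraries (median 0.0324), against 0.0832 to 1.71 in endometrium libraries (median 0.384). The PTGES to HPGD ratio separated all libraries of the 2 tissues, and the PTGS2 to HPGD ratio did not. As CPM carry no length, such a ratio compares libraries and does not say which transcript was the more abundant.

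Of the receptors, PTGDR, which binds prostaglandin D2, had 0, 0.235 and 0.616 CPM as the lowest, median and highest ampulla library and 2.37, 4.31 and 10.4 CPM as the same of the endometrium. The tissues did not overlap. Heifer means were 0.271 ± 0.166 CPM in the ampulla, against 5.23 ± 1.70 CPM in the endometrium (SD, n = 5). By the edgeR model PTGDR was 19.1-fold lower in the ampulla, and it was lower in 5 of 5 heifers. For PTGES, SLCO2A1 and PTGDR alike, every ampulla library lay below every endometrium library, which held for 6.54% of all transcripts tested.

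PTGFR, the receptor of prostaglandin F2α, averaged 0.856 ± 0.604 CPM in the ampulla, against 0.853 ± 0.467 CPM in the endometrium (SD, n = 5). Its log2 fold change of 0.05 ± 0.54 (SE) had a 95% interval from -1.04 to 1.15 and an edgeR adjusted p of 0.938. That interval takes in differences of up to about 2-fold in either direction. Counting error alone was smaller: over 160 ampulla and 503 endometrium counts the ratio of pooled CPM was 0.948, with a 95% exact interval from 0.788 to 1.13. PTGER4, a receptor of prostaglandin E2, had 4 counts in ampulla libraries and 6 in endometrium libraries, 4 of these in the ipsilateral mid horn of heifer 10872, and 0 in all 9 upper horn libraries. The ratio of its pooled CPM, ampulla over endometrium, was 1.99, with a 95% exact interval from 0.412 to 8.38 that covers counting error only and not the spread between libraries. The reference table lists 3 transcripts each for PTGFR and PTGER4, of which 1 had a row, and reads shared between transcripts may be missing from it.

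Against the upper horn alone, the sampled uterine site nearest to the oviduct, the same 5 genes were lower in the ampulla and 0 were higher. No site between the ampulla and the upper horn was sampled. Of all transcripts, 55.2% were called there, 24.9% higher and 30.4% lower. Log2 fold changes were -5.85 ± 0.41 for PTGES, -5.68 ± 0.36 for SLCO2A1, -5.14 ± 0.46 for PTGS2, -4.24 ± 0.33 for PTGDR and -1.93 ± 0.33 for HPGD (SE). HPGD was lower in the ampulla in 4 of 5 heifers, and the other 4 genes in 5 of 5. Both comparisons use the same ampulla libraries.

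Cell type markers moved with these differences. In the ampulla 9 of 9 tested stromal, 7 of 7 endothelial, 5 of 5 smooth muscle and 5 of 5 leukocyte markers were lower, while 7 of 8 ciliated, 4 of 4 oviduct secretory and 5 of 7 general epithelial markers were higher, with 1 of the last lower. Endothelial markers summed to 1.36 to 3.33 CPM in ampulla libraries and 408 to 1000 CPM in endometrium libraries, and leukocyte markers to 15.9 to 44.9 CPM in ampulla libraries and 99.7 to 344 CPM in endometrium libraries. Among defining markers, DCN, LUM, PDGFRA and PDGFRB of the stroma, VWF of the endothelium and ACTA2 of smooth muscle were at 0 in all 10 ampulla libraries, with 46 counts for PDGFRB to 22437 for DCN over the 24 endometrium libraries. PECAM1, MYH11 and PTPRC were at 0 in the ampulla as well, but had only 2, 2 and 3 counts in the endometrium, so their 0 does not tell the tissues apart. Endometrial gland markers summed to 55.4 to 171 CPM in ampulla libraries and 400 to 1260 CPM in endometrium libraries. Of the 2 tested, MSX1 was lower, at a log2 fold change of -5.84 ± 0.31, and FOXA2 was not called, at 0.25 ± 0.20 (SE). MSX1 made up most of the sum in endometrium libraries, with 339614 counts, against 32019 for FOXA2 and 4 for UPK1B. The part of this cell make-up in the differences of the prostaglandin genes was not tested.

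Among other genes of the pathway, 54 symbols were listed by role, 35 had a row and 23 were tested. Of the 23, 6 were higher and 11 lower in the ampulla, with a median log2 fold change of -0.16. Over all transcripts tested, 64.9% were called, 29.4% higher and 35.6% lower, with a median of -0.18. The counts per role below are to be read beside these shares. Phospholipases, which release arachidonic acid, were 3 higher and 2 lower of 6 tested. PLA2G4D, a cytosolic phospholipase A2, had the highest of these fold changes, with 11.8 ± 5.06 CPM in the ampulla, against 0.353 ± 0.697 CPM in the endometrium (SD, n = 5) and a log2 fold change of 7.99 ± 0.63 (SE). Its heifer means in the endometrium ran from 0.0155 to 1.60 CPM. The endometrium mean thus rests mostly on the highest heifer, and the ratio of the 2 means is smaller than that fold change. PLA2G15, a lysosomal phospholipase, had the lowest, with 3.34 ± 0.384 CPM in the ampulla, against 15.8 ± 4.97 CPM in the endometrium (SD, n = 5) and a log2 fold change of -2.15 ± 0.20 (SE). Phospholipases thus moved in both directions in the tissue where PTGS2 and PTGES were low.

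Of 10 other terminal synthases listed, 8 had a row, but only 3 passed the filter on low counts, so the rest were not tested. Of the 3 tested, PRXL2B, a prostaglandin F synthase, was higher and CBR3, a carbonyl reductase, lower in the ampulla. PRXL2B had 351 ± 90.7 CPM in the ampulla, against 175 ± 26.9 CPM in the endometrium (SD, n = 5), a log2 fold change of 1.005 ± 0.14 (SE), and CBR3 had one of -1.31 ± 0.17. Of 2 other transporters, SLCO3A1, an organic anion transporter, was higher by 2.36 ± 0.21 on the log2 scale (SE), and SLCO2B1 had a log2 fold change of -3.83 ± 0.18. The 2 other breakdown enzymes tested, PTGR1 and PTGR3, which reduce prostaglandins or their metabolites, had log2 fold changes of -0.08 ± 0.20 and 0.04 ± 0.10 (SE) and were not called.

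Other receptors were 0 higher and 2 lower of 4 tested. The lowest was PTGFRN, a membrane protein that lowers ligand binding of the prostaglandin F receptor, at 55.3 ± 7.78 CPM in the ampulla, against 350 ± 86.5 CPM in the endometrium (SD, n = 5) and a log2 fold change of -2.64 ± 0.16 (SE). PTGIR, the prostacyclin receptor, was the other lower one, while PTGER1 and PTGER2, both receptors of prostaglandin E2, had log2 fold changes of -0.16 ± 0.24 and 0.20 ± 0.24 (SE) and were not called. In the lipoxygenase branch, which draws on the same arachidonic acid, 1 gene was higher and 5 lower of 6 tested. The extremes were LTB4R2, a leukotriene B4 receptor, at a log2 fold change of 2.44 ± 0.35, and ALOX15B, a lipoxygenase, at -6.40 ± 0.51 (SE). PTGR1, PTGR3, PTGIR, PTGER1 and PTGER2 fall outside the naming rule and were named after their values were seen, to account for small groups.

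**Figure D2:**
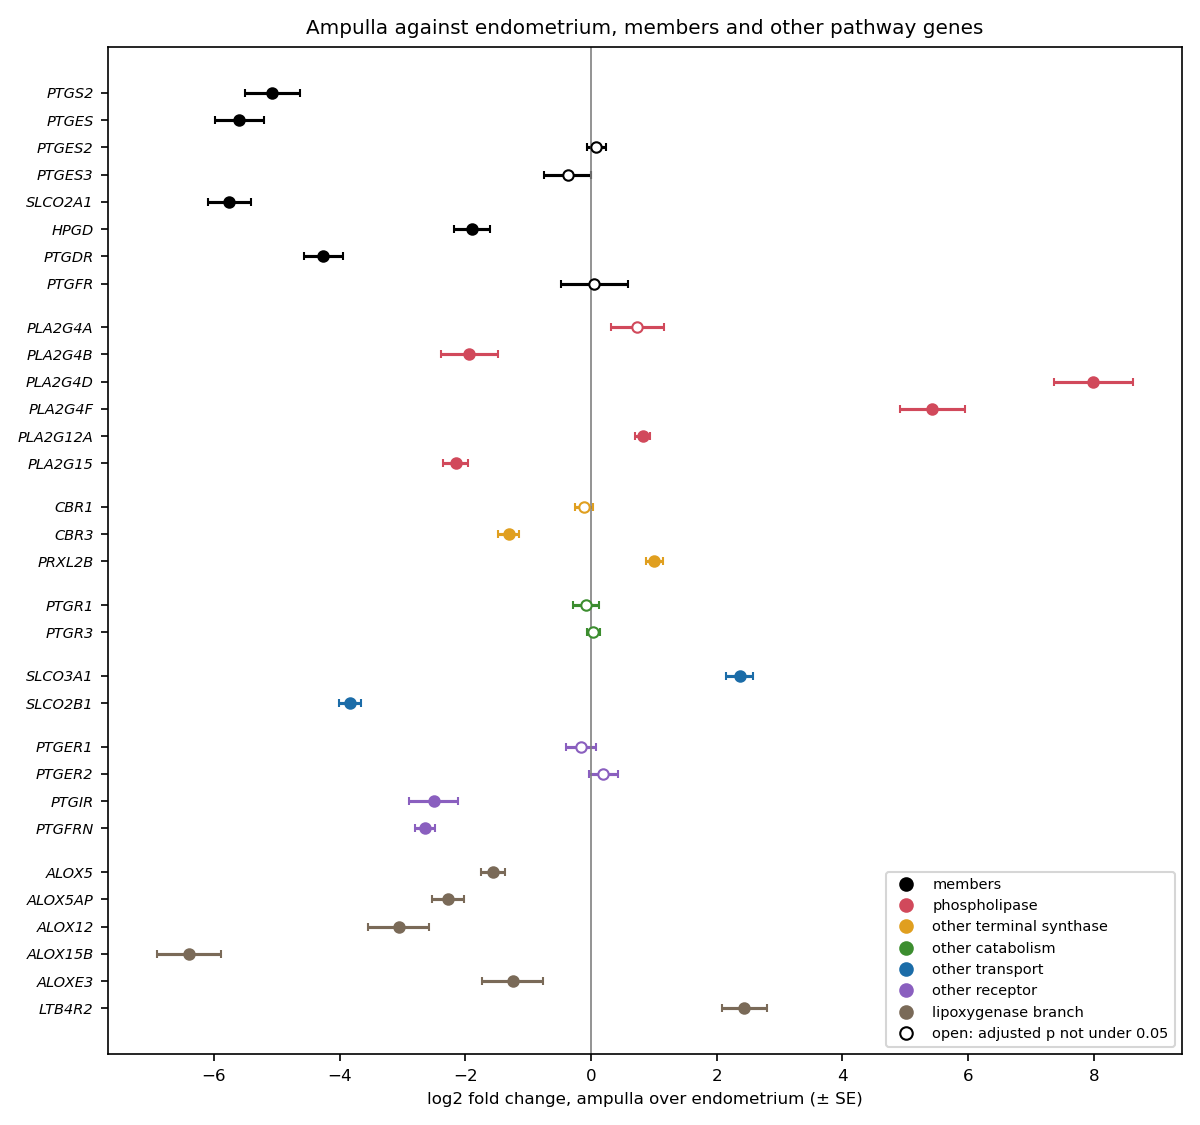
Log2 fold change of the ampulla over the endometrium with its SE for the 8 tested genes described here, at the top in black, and for 23 other pathway genes coloured by role, with open symbols where the adjusted p was not under 0.05. The black points of PTGS2, PTGES, SLCO2A1 and PTGDR lie at -4.26 or lower, while phospholipases spread from -2.15 to 7.99.

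Within the uterus, the comparisons between upper horn, mid horn and body asked whether the pathway changes along the organ. By edgeR, 0 of the 8 genes were called between upper and mid horn, where 0.0174% of all transcripts were, between upper horn and body, where 0.0232% were, and between mid horn and body, where 4.45% were. At an unadjusted p under 0.05 there were 1, 1 and 2 of the 8 genes in these comparisons, against 6.08%, 11.2% and 28% of all transcripts. DESeq2 called 0, 0 and 1. PTGES2 between mid horn and body was the 1 that DESeq2 called, in a comparison where it called 15.7% of all transcripts. The edgeR share between mid horn and body rested on few libraries. It counted 767 transcripts with all libraries and 1 without the contralateral mid horn of heifer 10882. With heifer 10882 or 11070 left out it counted 0, with 11033 left out 2, and without the 3 libraries that stood apart 1228.

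The mid horn against the body gave the nearest values to a call. PTGES2 had 91.3 ± 27.2 CPM in the mid horn and 62.4 ± 41.9 CPM in the body (SD, n = 5 heifers), a log2 fold change of 0.63 ± 0.22 (SE) with an edgeR adjusted p of 0.0682, higher in the mid horn in 4 of 5 heifers. PTGS2 had 27.8 ± 10.2 CPM in the mid horn and 13.9 ± 11.7 CPM in the body (SD, n = 5), a log2 fold change of 1.20 ± 0.47 (SE) with an edgeR adjusted p of 0.101, also in 4 of 5 heifers. The exception for both was heifer 10872, whose body had 135 CPM of PTGES2 and 33.4 CPM of PTGS2, the highest of the 5 bodies. Without heifer 10872 both were called by edgeR, PTGES2 at a log2 fold change of 0.83 with an adjusted p of 0.0333 and PTGS2 at 1.67 with 0.0356, where 10.5% of all transcripts were called. Without the filter on low counts edgeR called PTGS2 alone of the 8, at a log2 fold change of 1.23 with an adjusted p of 0.00289, where 5.33% of all transcripts were called. General epithelial markers moved alike: they summed to 3410 CPM in the body of heifer 10872 and to 933 to 1360 CPM in the other bodies, against 1920 to 4020 CPM in mid horn libraries. The part of this in the values was not tested.

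For the other pathway genes, 2 of 23 were called between mid horn and body, where 4.45% of all transcripts were. In the other comparisons within the uterus or between sides 0 were called, where at most 0.0232% of all transcripts were. PRXL2B had a log2 fold change of 0.70 ± 0.21 (SE), with an edgeR adjusted p of 0.0489. PLA2G4B, a cytosolic phospholipase A2, had one of -1.96 ± 0.56, with an edgeR adjusted p of 0.0454. Neither call held without the contralateral mid horn of heifer 10882, where the edgeR adjusted p was 0.076 for PRXL2B and 0.0717 for PLA2G4B, or without heifer 10882, 11033 or 11070. Over the 13 alternatives PRXL2B was called in 5, at adjusted p from 0.021 to 0.367, and PLA2G4B in 8, at adjusted p from 2.09e-05 to 0.367.

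Along the uterus, group means of SLCO2A1 lay between 5.60 CPM in the contralateral mid horn and 9.80 CPM in the body, those of PTGDR between 3.47 CPM in the contralateral mid horn and 6.50 CPM in the ipsilateral upper horn, and those of PTGES between 23.7 CPM in the body and 37.1 CPM in the ipsilateral upper horn. HPGD means lay between 41.9 CPM in the body and 62.9 CPM in the contralateral mid horn. The ranges of neighbouring groups overlapped for each of these genes. Heifers differed too. The endometrium mean of PTGES was 13.3 CPM in heifer 11070 and 39.7 CPM in heifer 11033, that of HPGD 33.4 CPM in heifer 11110 and 74.8 CPM in heifer 10872, and that of PTGES3 4.07 CPM in heifer 11033 and 15.6 CPM in heifer 10882. PTGS2 was lowest in heifer 11033, at 7.59 CPM, against 17.6 to 28.8 CPM in the other 4 heifers.

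The comparison of the ipsilateral with the contralateral side asked whether the side of ovulation leaves a trace in the pathway. By edgeR, 0 of the 8 genes were called in the ampulla, where 0.0174% of all transcripts were, 0 in the upper horn, where 0.0058% were, and 0 in the mid horn, where 0% were. At an unadjusted p under 0.05 there were 0, 1 and 0 of the 8, against 7.25%, 6.89% and 2.98% of all transcripts, and DESeq2 called 0 in each.

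The 1 gene was PTGS2 in the upper horn. It had 19.7 CPM on the ipsilateral and 18.2 CPM on the contralateral side in heifer 10872. In heifer 10882 it had 65.6 CPM on the ipsilateral and 9.86 CPM on the contralateral side. In heifer 11033 these were 10.7 CPM ipsilaterally and 6.77 CPM contralaterally, and in heifer 11070 they were 86.0 CPM ipsilaterally and 6.16 CPM contralaterally. The ipsilateral side was thus the higher in 4 of 4 heifers, by little in 2 and by much in heifers 10882 and 11070. The side of ovulation was the higher in every heifer for 10.5% of all transcripts in this comparison. Heifer 11110 had 5.95 CPM on the contralateral side and no ipsilateral library here. The log2 fold change was 2.03 ± 0.57 (SE), with a 95% interval from 0.88 to 3.19, an unadjusted p of 0.00112 and an edgeR adjusted p of 0.528, which is not a call. Without the filter on low counts edgeR called it, at 2.11 with an adjusted p of 8.13e-06, where 0.449% of all transcripts were called, and over the 13 alternatives the adjusted p ran from that value to 1.

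In the mid horn the side difference of PTGS2 was -0.03 ± 0.52 on the log2 scale (SE), higher ipsilaterally in 2 of 5 heifers, and in the ampulla it was 1.21 ± 0.68, higher ipsilaterally in 3 of 5. The side difference in the upper horn minus that in the mid horn, a contrast added after the data were seen, was 2.06 ± 0.78 (SE), with an unadjusted p of 0.0123 and an edgeR adjusted p of 1, in a contrast where 0% of all transcripts were called and 1.46% had an unadjusted p under 0.05. The side difference in the ampulla minus that in the horns was 0.21 ± 0.73, and 0 of the 8 genes were called for it by edgeR or DESeq2, or had an unadjusted p under 0.05, where 0% of all transcripts were called and 5.32% had such a p.

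Smooth muscle markers also differed between the sides of the upper horn. They summed to 584, 3300, 3570 and 952 CPM on the ipsilateral side of heifers 10872, 10882, 11033 and 11070, and to 1200, 610, 490 and 231 CPM on the contralateral side of the same heifers, higher ipsilaterally in 3 of 4. In the same order of heifers, ipsilateral PTGS2 in the upper horn was 19.7, 65.6, 10.7 and 86.0 CPM. Leukocyte markers summed to 170 to 247 CPM on the ipsilateral side and 105 to 271 CPM on the contralateral side, and these ranges overlapped. The part of these cells in the PTGS2 values was not tested.

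**Figure D3:**
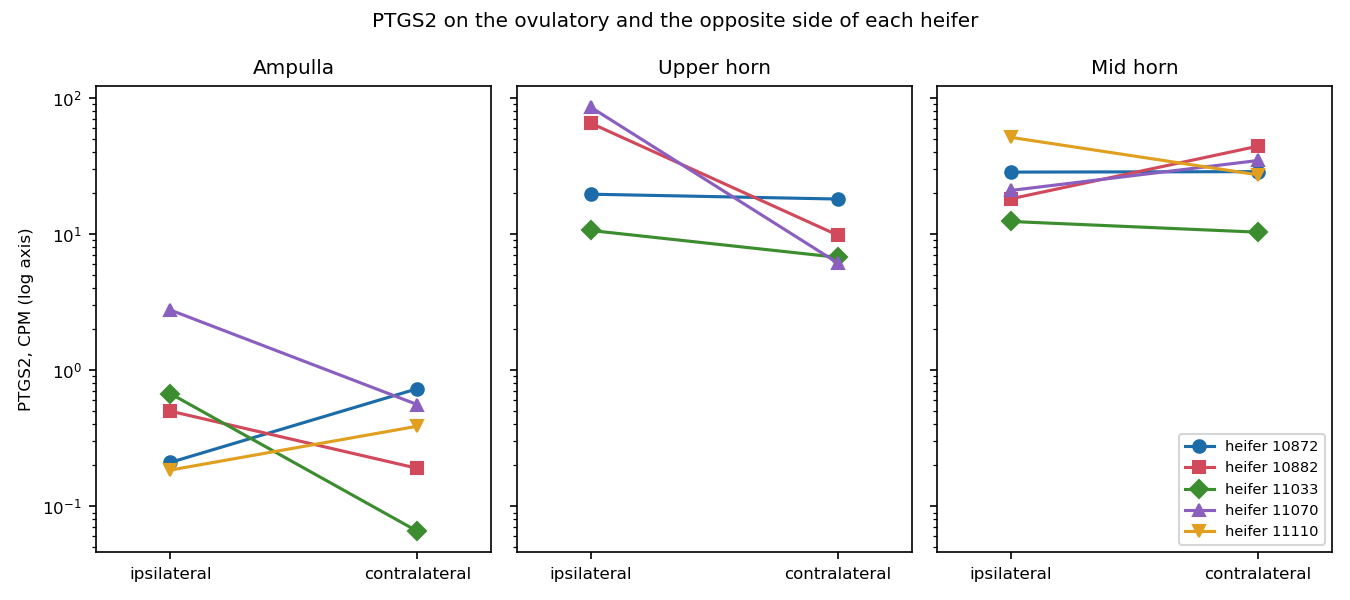
CPM of PTGS2 on a log axis on the ipsilateral and the contralateral side of each heifer, in the ampulla, the upper horn and the mid horn, with a line joining the libraries of a heifer. In the upper horn all 4 lines are higher on the ipsilateral side, steeply in heifers 10882 and 11070, at 65.6 and 86.0 CPM against 9.86 and 6.16 CPM, while the lines of the mid horn cross.

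For the other 7 tested genes, the 95% interval of the side difference included 0 at each of the 3 sites. PTGDR was higher ipsilaterally in 5 of 5 heifers in the ampulla, 3 of 4 in the upper horn and 4 of 5 in the mid horn, with log2 fold changes of 0.59 ± 0.51, 0.66 ± 0.40 and 0.60 ± 0.38 (SE) and edgeR adjusted p of 0.759, 0.759 and 1. In the ampulla heifer 10872 had 4 counts on each side, at 0.210 CPM ipsilaterally and 0.209 CPM contralaterally, and heifer 10882 had 0.450 CPM ipsilaterally and 0.444 CPM contralaterally, so 2 of these 5 were nearly level. Higher in every heifer held for 3.91% of all transcripts in the ampulla. Summed stromal markers were higher ipsilaterally in 3 of 4 heifers in the upper horn and 5 of 5 in the mid horn, at 53500 to 75700 CPM in the ipsilateral and 36500 to 61700 CPM in the contralateral mid horn, and their part in this was not tested. PTGFR had a log2 fold change of 1.73 ± 0.92 (SE) in the ampulla, ipsilateral over contralateral, with a 95% interval from -0.14 to 3.60 and an edgeR adjusted p of 0.685. It was higher ipsilaterally in 4 of 5 heifers there.

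Of the 8 tested genes, PTGFR was spread most unevenly over the uterine libraries, with a coefficient of variation of 157%. It had 118 counts in the ipsilateral upper horn of heifer 11033, 94 in the contralateral upper horn of heifer 10872 and 89 in the ipsilateral upper horn of heifer 10882, which together were 301 of 503 uterine counts, or 59.8%. No other uterine library had more than 25, and the contralateral upper horn of heifer 11070 had 0. The 3 libraries were those with the highest summed smooth muscle markers in the uterus, at 3570, 1200 and 3300 CPM. The next highest library, the ipsilateral upper horn of heifer 11070 with 952 CPM, had 1 count of PTGFR. Over all 24 uterine libraries, which share 5 heifers, the rank correlation of PTGFR with the summed muscle markers was only 0.159, so below these 3 libraries the order of the one did not follow the order of the other. Whether muscle cells account for the PTGFR counts was not tested.

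**Figure D4:**
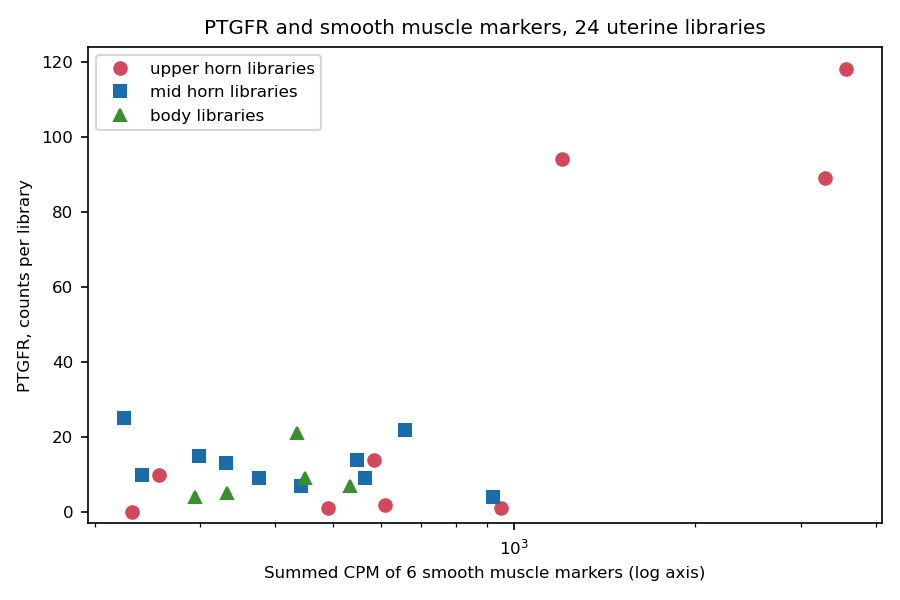
Counts of PTGFR per library against the summed CPM of 6 smooth muscle markers on a log axis, for 24 uterine libraries, marked by site. Libraries of the upper horn with 118, 94 and 89 counts sit at the highest marker sums, and the rest lie at 25 counts or fewer with no visible trend.

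Within the endometrium the genes did not vary as a unit. Over the 28 pairs of the 8 tested genes, Spearman's rho across 24 uterine libraries, which share 5 heifers, ran from -0.733 for PTGES2 with PTGDR to 0.569 for PTGES3 with PTGDR, with a median of -0.023. PTGS2 and PTGES, the inducible pair, had a rho of -0.002, and PTGES and PTGES3 one of -0.656. SLCO2A1 with PTGDR had 0.558. These correlations are descriptions of libraries that also share depth and cell make-up.

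The genes differed in the markers they followed most closely, and some followed more than 1 list. PTGES2 had a rho of 0.797 with the sum of general epithelial markers and PTGFR one of 0.583. HPGD had one of 0.754 with endometrial gland markers, a sum that was mostly MSX1 in these libraries, and 0.598 with general epithelial markers. PTGES2 also had 0.729 with platelet and erythroid markers, which summed to at most 3.66 CPM in endometrium libraries. It had 0.656 with oviduct secretory and 0.603 with gland markers. PTGS2 had 0.552 with general epithelial markers. PTGDR went the other way, at 0.741 with stromal and -0.651 with general epithelial markers, and SLCO2A1 had -0.565 with general epithelial markers. Without the contralateral mid horn of heifer 10882, PTGES2 had 0.853 with general epithelial and 0.768 with platelet and erythroid markers. Under that omission HPGD had 0.735 with gland markers, PTGDR 0.745 with stromal markers and SLCO2A1 -0.506 with general epithelial markers. The largest rho of PTGES was -0.547, with ciliated epithelium markers, and that of PTGES3 was -0.410, with leukocyte markers.

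**Figure D5:**
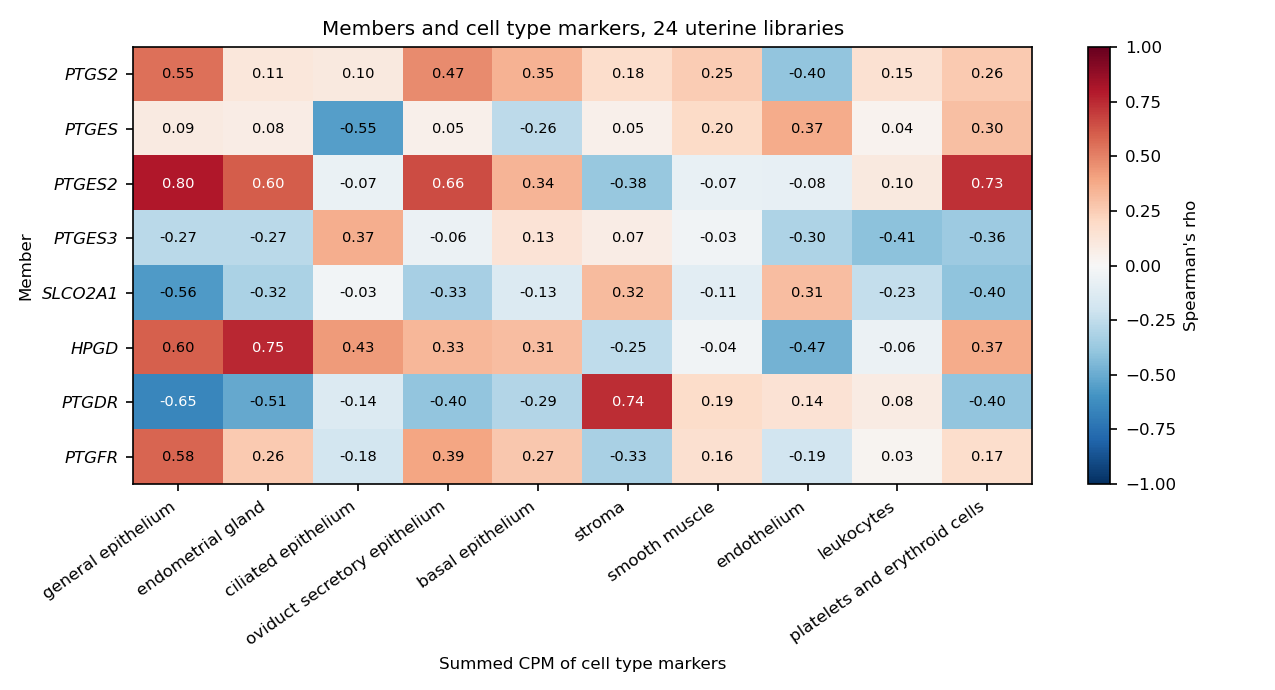
Spearman's rho over 24 uterine libraries between the CPM of each of 8 tested genes, in rows, and the summed CPM of 10 lists of cell type markers, in columns, from blue for negative to red for positive. PTGES2 and HPGD are red for epithelial and gland markers, up to 0.797 and 0.754, and PTGDR is red for stroma at 0.741 and blue for general epithelium at -0.651. PTGES2 is also red for platelet and erythroid markers, at 0.729.

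Likeness of pattern was measured by Spearman's rho of log2 CPM against 8993 other genes. Over the 24 uterine libraries PTGS2 was most like SOCS3 (0.864), an inhibitor of cytokine signalling, IL1B (0.849), the cytokine interleukin-1 beta, and FJX1 (0.842), and SOCS3 and IL1B led over all 34 libraries as well (0.934 and 0.903). Genes among those most like PTGES were HACD4 (0.812) and CYP4V2 (0.803). HPGD was most like CYBRD1 (0.890), a ferric reductase, MAP10 (0.877) and RRM1 (0.862), a subunit of ribonucleotide reductase.

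PTGES2 had the closest likenesses of all 8, with TSPO (0.950), a mitochondrial membrane protein, CD320 (0.944) and GLRX5 (0.942), a mitochondrial glutaredoxin. PTGDR was most like NR1D1 (0.829), a nuclear receptor of the circadian clock, COL1A2 (0.817), a collagen chain that is itself among the stromal markers, and GPR20 (0.814). PTGES3 was most like HSPH1 (0.892), a heat shock protein, H2BC20 (0.892) and MXD1 (0.886). SLCO2A1 had CREM (0.799), GGT1 (0.793) and GPR17 (0.793), and PTGFR had ZNF641 (0.917), ABTB2 (0.789) and LPL (0.784), lipoprotein lipase. Some of the genes named here had few counts, with endometrium means of 1.33 CPM for HSPH1, 0.912 for GPR20, 0.527 for CREM and 0.401 for GGT1. The libraries behind each rho share heifers, depth and cell make-up, and no test was made.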

How the data were processed

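The authors deposited a table of read counts, whole numbers per RefSeq transcript and library that were not normalised, with 38568 rows. Per the submitters' processing notes, the tools included STAR 2.7.9a, Cutadapt, SAMtools and HTSeq. No source used here gives the strand setting, counting mode or genome build. Gene names came from a RefSeq gene table, which matched 26092 rows with 95.3% of counts. Counting per transcript can lose reads shared by transcripts. The edgeR p-values weigh a difference against the scatter left between libraries after group and heifer were fitted. They do not measure the spread between animals.

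The counts were tested with edgeR 4.0.16 in R 4.3.3 (TMM, filterByExpr, robust quasi-likelihood F test, group and heifer as terms, all 34 libraries, Benjamini-Hochberg over 17241 transcripts, threshold 0.05). An SE is the log2 fold change over the root of F. Per-heifer directions used log2 of CPM plus 0.5. DESeq2 1.42.0 was an alternative. The edgeR steps were also run on simulated data. These had few changed genes, balanced in direction, and no heifer effect, so they do not show how the steps do on the real libraries. Pairing by heifer comes from the labels. As a check, libraries of the same heifer deviated together (median correlation 0.207, 99 pairs), unlike those of different heifers (-0.0539, 396 pairs). The genes, lists and contrasts were chosen with earlier results of these data known. Named were all 10 genes, the most extreme call per role and direction among other pathway genes, those called within the uterus or between sides, and the 3 genes most alike in pattern. For PTGES, 1 of these 3 is not reported here.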

Additional observations from a re-analysis of the deposited data

Results flagged for a closer look

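By Dixon's criterion, 14 of 67 sets of values (1 gene in 1 group of 4 or 5 libraries) held a library far from the others. Chance flags about 1 in 20 such sets.

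Among genes with more counts, 8 values in 6 libraries stood apart. In the ipsilateral ampulla of heifer 11070, PTGS2 was 2.77 CPM with the next library at 0.673 CPM, and PTGES3 was 14.5 CPM with the next at 6.16 CPM. In the ipsilateral ampulla of heifer 11110, HPGD was 28.4 CPM with the next at 8.07 CPM. In the ipsilateral upper horn of heifer 11070, PTGES was the lowest at 19.1 CPM with the next at 41.6 CPM. In the uterine body, heifer 10872 had 135 CPM of PTGES2 with the next at 58.9 CPM and 0.814 CPM of PTGFR with the next at 0.348 CPM, and heifer 10882 had 24.9 CPM of PTGES3 with the next at 8.86 CPM. The contralateral upper horn of heifer 10872 had 4.40 CPM of PTGFR with the next at 0.464 CPM.

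In 6 groups the library that stood apart was the only one with a count, which by itself leads to a flag. PTGS1 had 0.0517 CPM in the ipsilateral ampulla of heifer 11033 and 0.124 CPM in the ipsilateral upper horn of heifer 11070. PTGER4 had 0.0523 CPM in the contralateral ampulla of heifer 10872, 0.183 CPM in the ipsilateral mid horn and 0.0388 CPM in the body of the same heifer, and 0.0503 CPM in the contralateral mid horn of heifer 11033.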

How the results depend on the processing

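In both ampulla comparisons PTGS2, PTGES, SLCO2A1, HPGD and PTGDR kept their direction and call under all 13 alternatives. Without the heifer term (no replicate block) 5 genes were again lower in the ampulla, with PTGS2 at -5.07, and no call among the 8 genes changed in any comparison, but PRXL2B and PLA2G4B were no longer called between mid horn and body (adjusted p 0.156 each), where 1 of all transcripts was called, against 767 with the term. Scaling moved the median log2 fold change of all transcripts, ampulla over endometrium, from -0.18 with TMM to -0.27 with DESeq2 size factors and -0.48 with library totals only, where 3654 were called higher and 7455 lower, against 5062 and 6136. Genes without a call changed sign near 0. For the ampulla over the endometrium, PTGES2 was -0.19 with library totals and -4.16e-06 by DESeq2, and PTGFR was -0.017 with DESeq2 size factors, -0.22 with library totals, -0.0055 without a filter, -0.033 by DESeq2, -0.14 without heifer 10882 and -0.35 to 0.44 over all such omissions (-0.35 without heifer 11033). For the ampulla over the upper horn, PTGES2 was -0.066 with library totals, PTGES3 ran from -0.63 to 0.10 (0.10 without heifer 10882) and PTGFR from -1.21 to 0.060 (0.060 without heifer 10872) with a heifer left out. Between mid horn and body, the genes called higher numbered 1 without a filter (PTGS2, 1.23, adjusted p 0.00289, with 5.33% of all transcripts called), 1 by DESeq2 (PTGES2, 0.55, adjusted p 0.0474) and 0 to 2 with a heifer left out. Over all alternatives the adjusted p there ran from 0.00289 to 0.403 for PTGS2 and from 0.0333 to 0.367 for PTGES2. Without a filter PTGS2 was also called between the sides of the upper horn (1 gene, 2.11, edgeR adjusted p 8.13e-06) and for its side difference in the upper minus the mid horn (1 gene, 2.14, edgeR adjusted p 0.0106, with 0.179% of all transcripts called), and over all alternatives these p ran up to 1; the cause was not tested. With a heifer left out, the side difference of PTGS2 in the upper horn ran from 1.58 to 2.55. PTGS1 and PTGER4, with 30 and 10 counts over all libraries, did not pass the filter on low counts, and the cause was not tested.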
